A study of Mus musculus with 17 samples.

Results

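The cell cycle genes described here are 51 genes chosen by name, 21 that act around the start and course of DNA replication (the S phase list) and 30 that act in G2 and mitosis (the mitosis list), out of 41388 genes in the count tables. All 51 were found in the tables, and all 51 stood above 1 CPM (counts scaled to the total of the library) in every library, from 3.34 CPM for Ccne2, a count of 181 in Bap1flox BMM 1, to 411 CPM for Mki67. RNA-seq libraries of 17 cultures were measured. They hold bone marrow macrophages (BMMs) grown in M-CSF and osteoclast cultures (OCs, at the stage of preosteoclasts) that received M-CSF together with RANKL at 100 ng/ml for 24 h. In Bap1flox mice, the controls, loxP sites flank part of Bap1, the gene of a histone H2A deubiquitinase, while Bap1LysM mice carry the same floxed Bap1 together with LysM-Cre, a Cre recombinase inserted into the lysozyme gene Lyz2 that acts in macrophages, neutrophils and their precursors. The OC libraries came from male mice of 20 weeks per the study. For the BMM libraries in particular the age, sex and time in culture were not given in the sources used here, which hold only a general protocol for growing BMMs. There were 3 Bap1flox BMM, 3 Bap1LysM BMM, 6 Bap1flox OC and 5 Bap1LysM OC libraries, numbered 1 to 3, 1 to 3, 1 to 6 and 1, 2, 4, 5 and 6. The labels do not say whether same-numbered cultures came from the same mice, so p-values measure the spread between these libraries.

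A cell that is to divide passes a commitment point in G1, after which E2F transcription factors switch on the genes of DNA replication. The helicase made of the Mcm proteins is loaded onto DNA by Cdc6 and Cdt1, and is set in motion with Cdc45 and the GINS complex when cyclin E and its kinase become active. Later, B-Myb (Mybl2) and FoxM1 (Foxm1) bind with the MuvB complex to a promoter element called the CHR and raise the genes of mitosis, which encode Cdk1 and its cyclins, the spindle motors, the checkpoint kinases and the machinery of chromosome separation. BMMs proliferate in response to M-CSF, and in the first period after RANKL osteoclast precursors can still divide before they leave the cell cycle and fuse.

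The promoters of 42 of the 51 genes were found in the RefSeq table for GRCm38.p6, each with 250 bases before the annotated start and 50 from the start on. Ccna2, Ccne2, Cdc25c, Mcm4, Aurkb, Foxm1, Kif20a, Tpx2 and Gins2 had no entry. Both strands were searched for the E2F core, spelled TTCCCGC or TTGGCGC, the CHR, spelled TTTGAA, and the CCAAT box, spelled CCAAT. The E2F core read on the other strand ends in GCGCCAA and shares letters with CCAAT where a T follows, so 1 stretch can count for both. The E2F core stood in 8 of 18 S phase promoters (44.4%), in 3 of 24 mitosis promoters (12.5%) and in 6.81% of 32851 promoters in the table. The CHR showed the opposite split, with 3 of 18 S phase promoters (16.7%), 17 of 24 mitosis promoters (70.8%) and 17.9% of all promoters. The CCAAT box was common in both lists, in 11 of 18 (61.1%) and 21 of 24 (87.5%), against 37.4% of all promoters. CHR and CCAAT box occurred together in 17 mitosis promoters and in 6.95% of all. The lists count 1 promoter per gene, while the share of all promoters counts every entry of the table. A match is a description of letters and not evidence of binding.

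The sequences of 2 S phase and 2 mitosis promoters are shown as examples. Those of Mcm5 and Mcm6 hold E2F cores and no CHR, that of Cdc20 a CHR and no E2F core, and that of Cdk1 both. The sequences are written 5′ to 3′ on the strand of the gene, with E2F core, CHR and CCAAT matches in capitals. The Mcm5 promoter spans chr8:75109259-75109558 (plus strand), that of Mcm6 chr1:128359656-128359955 (minus strand), that of Cdk1 chr10:69352863-69353162 (minus strand) and that of Cdc20 chr4:118437294-118437593 (minus strand).
Mcm5: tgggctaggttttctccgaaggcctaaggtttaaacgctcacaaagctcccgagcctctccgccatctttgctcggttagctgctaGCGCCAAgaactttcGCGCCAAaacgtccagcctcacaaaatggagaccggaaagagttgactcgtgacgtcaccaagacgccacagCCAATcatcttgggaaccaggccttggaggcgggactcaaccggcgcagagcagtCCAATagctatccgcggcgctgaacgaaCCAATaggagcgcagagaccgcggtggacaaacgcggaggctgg
Mcm6: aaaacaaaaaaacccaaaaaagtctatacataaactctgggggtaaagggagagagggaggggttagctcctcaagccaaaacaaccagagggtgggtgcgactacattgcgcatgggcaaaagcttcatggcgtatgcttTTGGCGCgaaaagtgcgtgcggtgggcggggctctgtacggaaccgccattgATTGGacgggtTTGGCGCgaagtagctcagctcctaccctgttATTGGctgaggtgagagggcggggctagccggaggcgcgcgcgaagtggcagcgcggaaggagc
Cdk1: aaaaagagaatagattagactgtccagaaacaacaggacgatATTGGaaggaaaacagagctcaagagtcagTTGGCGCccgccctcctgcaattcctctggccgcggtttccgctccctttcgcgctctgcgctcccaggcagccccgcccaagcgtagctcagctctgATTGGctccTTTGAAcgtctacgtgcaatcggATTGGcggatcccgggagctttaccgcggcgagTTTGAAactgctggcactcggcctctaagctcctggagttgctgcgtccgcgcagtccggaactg
Cdc20: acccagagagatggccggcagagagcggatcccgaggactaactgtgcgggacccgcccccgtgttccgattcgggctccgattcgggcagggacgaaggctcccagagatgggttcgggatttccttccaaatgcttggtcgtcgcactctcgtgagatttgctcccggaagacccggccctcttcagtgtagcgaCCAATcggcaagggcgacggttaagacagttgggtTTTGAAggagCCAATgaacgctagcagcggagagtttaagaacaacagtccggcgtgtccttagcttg

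The Mcm5 promoter holds 2 E2F cores and 3 CCAAT boxes with no CHR, and that of Mcm6 holds 2 E2F cores and 2 CCAAT boxes. In the Cdk1 promoter 1 E2F core stands upstream of 2 CHR matches and 3 CCAAT boxes are spread over the window, while the Cdc20 promoter has 1 CHR just before the start, with a CCAAT box on either side of it.

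Counts per library summed to 37967542 to 61369441. Replicates 1 to 3 and 4 to 6 carry file names of different forms, and the share of counts from genes on the mitochondrial genome was 0.481 to 1.074% in the former and 2.364 to 5.264% in the latter, so OC comparisons are also given within each of these 2 library sets. In OCs 1 to 3 this share was 1.021 and 1.074% in Bap1LysM and 0.481 to 1.019% in Bap1flox. In OCs 4 to 6 it was 3.383 to 5.264% and 2.364 to 3.639%, and its part in the results was not tested. Bap1 itself measured 70.3 to 97.1 CPM in Bap1flox OCs and 55.9 to 87.7 CPM in Bap1LysM OCs, and 82.1 to 84.4 CPM against 74.8 to 77.1 CPM in BMMs, but a count over the whole gene does not separate the floxed exons and so does not check the deletion. Lyz2, which Cre interrupts, stood at 0.146 to 0.436% of the Bap1flox mean in 6 Bap1LysM libraries. In the libraries labelled Bap1LysM BMM 1 and Bap1LysM OC 1 it stood at 42.8% and 75.1%, against 95.7 to 107% in Bap1flox BMMs and 80.3 to 144% in Bap1flox OCs, and the counts and medians of the 51 genes in each comparison that holds them are also given without them, except within replicates 1 to 3 and between the library sets. Osteoclast markers (10 genes) summed to 230.5 to 351.6 CPM in BMMs and 5917 to 17560 CPM in OCs, and macrophage markers (8 genes) to 8785 to 11730 CPM and 4019 to 5565 CPM.

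Levels compared between genes are given as RPKM, that is CPM per kilobase of gene length. In Bap1flox OCs the mean RPKM of the 51 genes ran from 3.70 for Ttk, a kinase of the spindle checkpoint, to 76.7 for Pcna, the sliding clamp of DNA polymerase. Mcm6 at 64.2, Rrm1 at 58.5 and Cdt1 at 58.00 RPKM followed, and the highest mitosis genes were Ube2c at 53.4 and Ccnb2 at 50.5 RPKM. In Bap1flox BMMs Pcna was again highest at 42.3 RPKM and Cdc6 lowest at 1.23 RPKM. Within the helicase, whose subunits form a ring of equal parts, mean RPKM in Bap1flox OCs ran from 32.9 for Mcm4 to 64.2 for Mcm6.

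Averaged over each list as log2 CPM, both lists were lowest in Bap1flox BMMs, followed by Bap1LysM BMMs, Bap1LysM OCs and Bap1flox OCs. The S phase mean was 4.12, 4.91 and 4.63 in Bap1flox BMMs and 5.28, 5.95 and 5.09 in Bap1LysM BMMs, so every Bap1LysM culture stood above every Bap1flox one. In OCs the order was the reverse, at 6.01 to 6.57 in Bap1flox and at 5.99, 6.04, 5.42, 5.43 and 5.55 in Bap1LysM, with replicate 2 just inside the Bap1flox range and the other 4 below it. The mitosis mean was 4.97, 5.32 and 5.01 in Bap1flox BMMs and 4.91, 6.10 and 5.42 in Bap1LysM BMMs, where the genotypes overlapped. In OCs it was 6.24 to 6.46 in Bap1flox and 5.49, 6.04, 5.76, 5.81 and 5.99 in Bap1LysM, with no overlap. Bulk RNA cannot tell fewer cycling cells from less of these transcripts per cell.

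**Figure D1:**
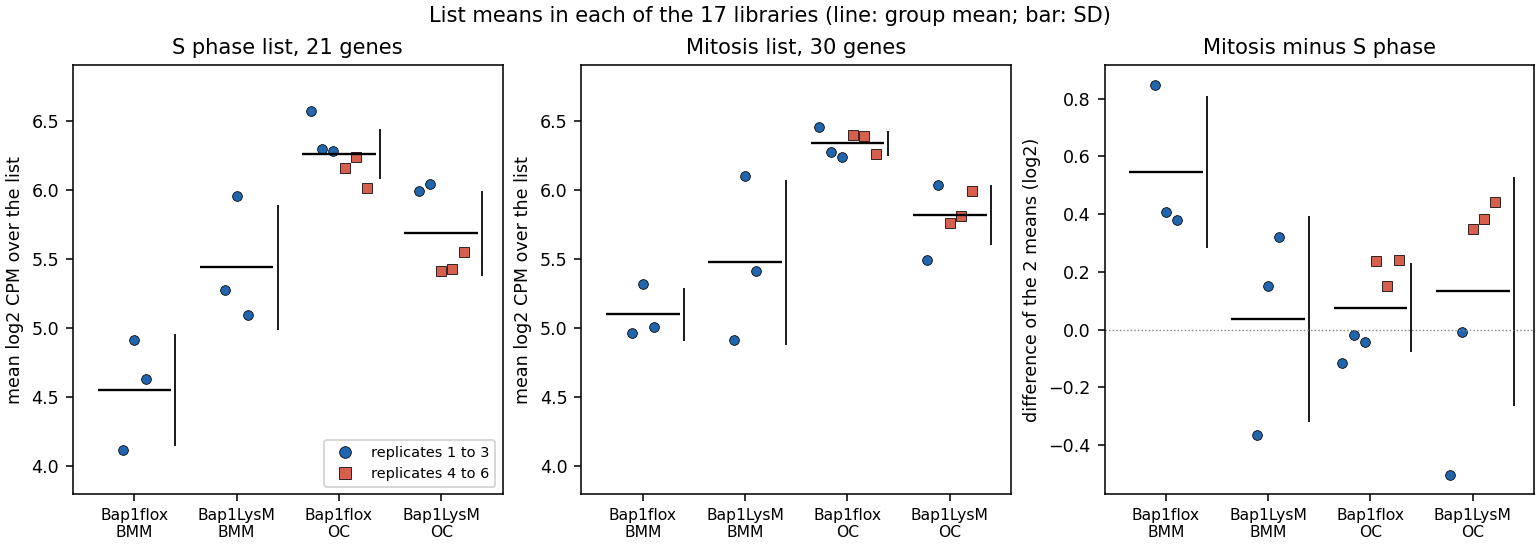
Mean log2 CPM over the 21 S phase genes (left) and the 30 mitosis genes (middle) and the mitosis mean minus the S phase mean (right) in each of 17 libraries, by group, with colour and shape for the library set, a line at the group mean and a bar of 1 SD. For S phase genes the Bap1LysM mean lies above that of Bap1flox in BMMs and below it in OCs, and the lowest mitosis minus S phase values, -0.365 and -0.503, are the Bap1LysM cultures numbered 1.

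The response to RANKL in control cells was compared in replicates 1 to 3, the only ones with both BMM and OC libraries. In Bap1flox cultures the cell cycle genes were higher in OCs nearly throughout. All 21 S phase genes and 27 of 30 mitosis genes passed the edgeR test in the upward direction and none in the downward one, where 29.4% of 13637 genes tested were called higher and 28.7% lower. The median log2 difference was 1.72 over the S phase list and 1.05 over the mitosis list, against -0.03 over all genes. In all 51 genes the CPM of every OC stood above that of every BMM, as it did for 44.1% of all genes. CPM does not include the TMM factors of the test, which ran from 0.902 to 1.108 in this fit. Cenpa is among the 51, although its tested log2 difference was 0.02. OCs differ from BMMs by RANKL and possibly by time in culture, and these cannot be told apart.

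Among the genes that license replication, Cdt1, which loads the Mcm helicase, measured 26.9, 40.2 and 32.8 CPM in the 3 Bap1flox BMMs and 157, 149.8 and 141 CPM in the OCs of the same numbers. The difference of 1.99 ± 0.19 (SE, adjusted p = 3.23e-05) on the log2 scale, a fold of 3.97, had the smallest p of the 51 genes. Mcm5, a helicase subunit, went from 31.4, 58.8 and 44.8 CPM to 229.6, 182 and 189 CPM, a log2 difference of 1.98 ± 0.27 (SE, adjusted p = 0.000192). The other subunits rose too, by log2 differences from 1.45 for Mcm3 to 1.84 for Mcm6, and Mcm10, which helps to start the helicase, by 1.94 ± 0.24. For Mcm6 the BMM values were 55.8, 94.4 and 76.6 CPM and the OC values 331, 295 and 289 CPM, and the groups were far apart. Cdc6, Cdc45 and Gins2 rose by 1.92, 1.61 and 1.07.

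The largest rise was that of Mybl2, the gene of B-Myb, with 5.94, 12.2 and 11.1 CPM in BMMs and 79.3, 70.5 and 71.02 CPM in OCs. Its log2 difference was 2.74 ± 0.32 (SE, adjusted p = 9.07e-05), or 6.7-fold. Ccne1, a cyclin E that drives the entry into S phase, measured 4.24, 9.20 and 8.54 CPM in BMMs and 39.9, 30.1 and 30.3 CPM in OCs, with a log2 difference of 2.02 ± 0.33 (SE, adjusted p = 0.000594). Its relative Ccne2 rose by 2.02 ± 0.30. The smallest rises in the list belonged to E2f1, the activating E2F, at 0.57 ± 0.16 (SE, adjusted p = 0.011), and to Pcna at 0.70 ± 0.24 (SE, adjusted p = 0.0266). Both were among the 3 most abundant S phase genes per length in Bap1flox BMMs, with a mean level of 16.9 RPKM for E2f1 and 42.3 RPKM for Pcna. The nucleotide synthesis genes Rrm1, Rrm2, Tyms and Tk1 lay between, from 1.26 for Tk1 to 1.72 for Rrm2.

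Of the mitosis genes, Bub1, a kinase of the spindle checkpoint, rose from 12.5, 17.2 and 12.1 CPM to 70.8, 54.6 and 55.3 CPM, a log2 difference of 1.94 ± 0.28 (SE, adjusted p = 0.000296). Espl1, the gene of separase, which cuts the cohesin that holds sister chromatids, rose from 24.3, 35.4 and 28.1 CPM to 105, 116 and 117 CPM, or by 1.77 ± 0.29 (SE, adjusted p = 0.000637). Bub1b, a partner of Bub1, rose by 1.36 ± 0.22 (SE, adjusted p = 0.000591). These 3 genes had the smallest p of the list, and other mitotic kinases and cyclins also rose, with Aurka at 1.36, Ccnb1 at 1.32, Cdk1 at 1.08, Aurkb at 1.04 and Plk1 at 0.99. Cdc20, the activator of the anaphase-promoting complex, measured 32.4, 42.9 and 36.2 CPM in BMMs and 104, 94.6 and 89.98 CPM in OCs, a log2 difference of 1.19 ± 0.30 (SE, adjusted p = 0.00676). The 3 genes that did not pass were Ccnb2 at 0.62 ± 0.26 (SE, adjusted p = 0.0666), Mki67 at 0.67 ± 0.29 (SE, adjusted p = 0.0724) and Cenpa, the centromeric histone, at 0.02 ± 0.22 (SE, adjusted p = 0.951). Mki67, the gene of the proliferation marker Ki-67, had 170.1, 187 and 150.5 CPM in BMMs and 307, 306 and 299.7 CPM in OCs.

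**Figure D2:**
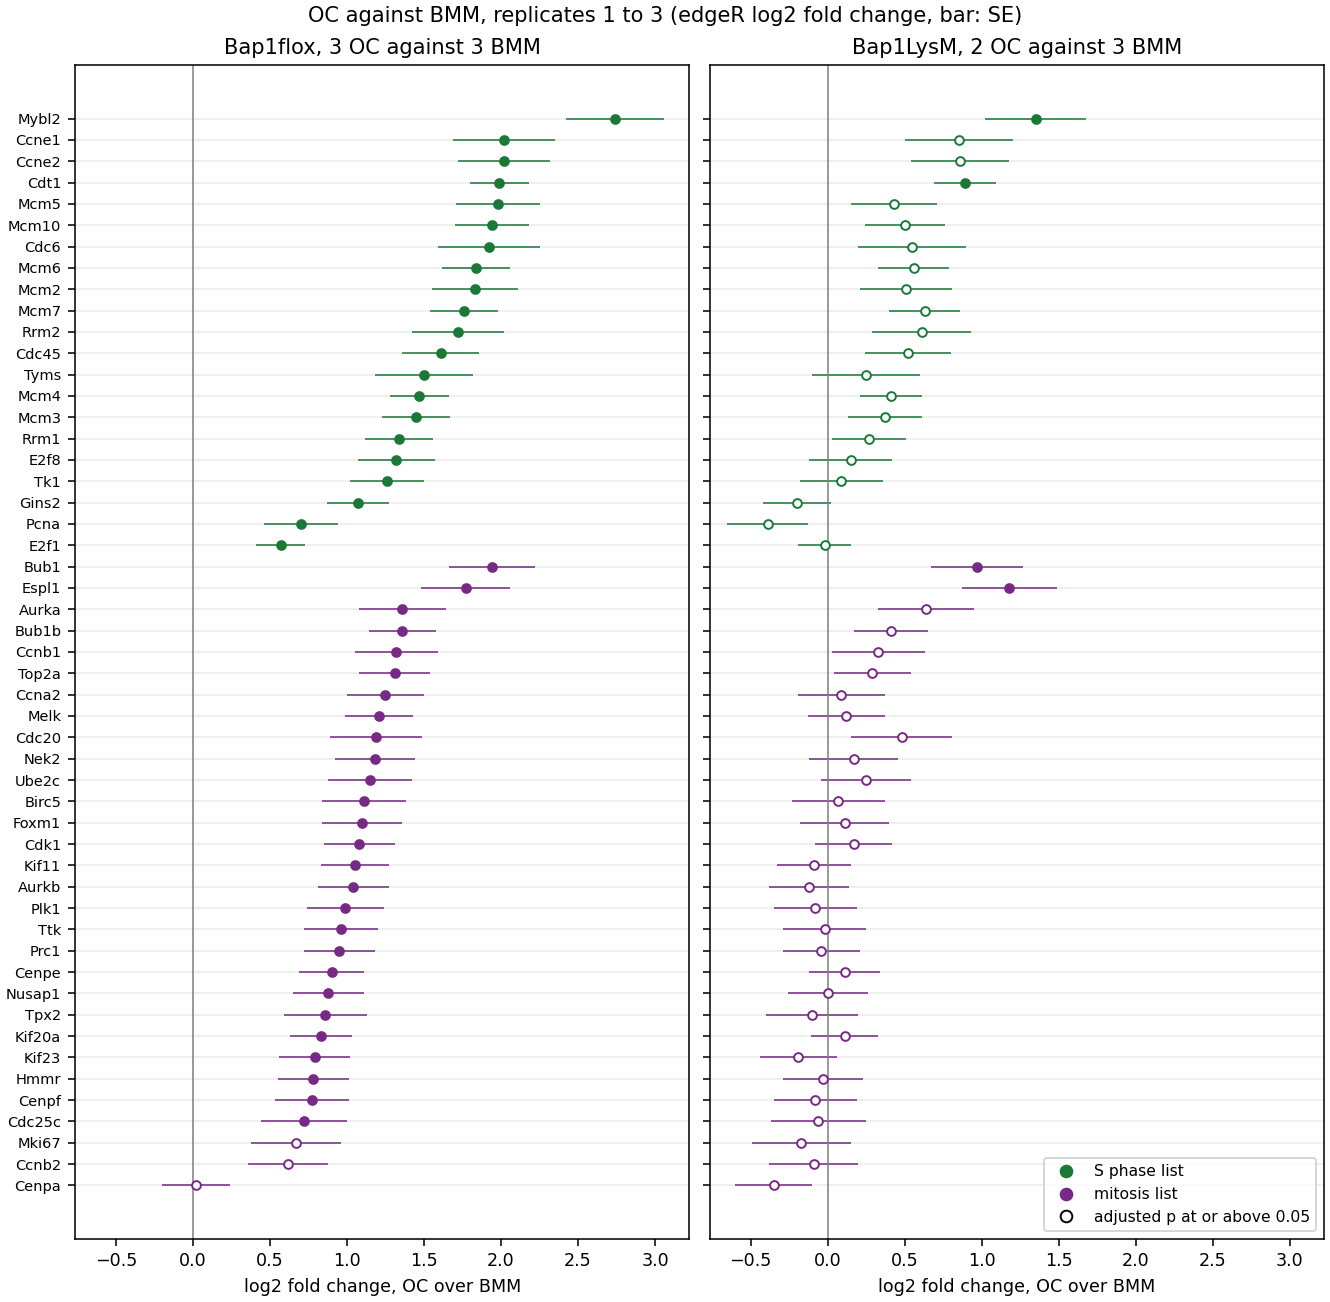
The log2 difference of OC over BMM (edgeR, bars show 1 SE) for each cell cycle gene in replicates 1 to 3, in Bap1flox cultures (left, 3 OC against 3 BMM) and Bap1LysM cultures (right, 2 OC against 3 BMM), with filled points for adjusted p under 0.05. In Bap1flox 48 points are filled and lie right of 0, and in Bap1LysM 4 are filled, Mybl2, Cdt1, Bub1 and Espl1.

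In Bap1LysM cultures the same comparison, of 2 OCs with 3 BMMs, gave smaller differences. Of the 51 genes 4 passed the test, all higher in OCs, where 21.2% of all genes were called higher and 17.7% lower, so the share of cell cycle genes called lay under the background. The median log2 difference was 0.50 over the S phase list and 0.08 over the mitosis list, against 0.01 over all genes. Both OCs stood above all 3 BMMs in 13 S phase genes and 2 mitosis genes, as for 33.2% of all genes. The 4 genes called were Cdt1 at 0.89 ± 0.20 (SE, adjusted p = 0.00606), Mybl2 at 1.35 ± 0.33 (SE, adjusted p = 0.00962), Espl1 at 1.18 ± 0.31 (SE, adjusted p = 0.0144) and Bub1 at 0.97 ± 0.30 (SE, adjusted p = 0.0277). Each of them was also among the largest risers in Bap1flox.

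In the library labelled Bap1LysM BMM 2 most cell cycle genes were at their highest among the 6 BMMs, 20 of the 21 S phase and all 30 mitosis genes, and the count depends on it. Without that library 16 genes were called, where 5042 of 13617 genes were in either direction, and the medians were 0.74 and 0.36. Without Bap1LysM BMM 3, 2 genes were called (4293 of 13615 genes in either direction). Without Bap1flox BMM 1, which only adds to the estimate of spread, 7 genes were called (5427 of 13599). The mitosis median was -0.16 without Bap1LysM BMM 1, -0.13 without Bap1LysM OC 2 and 0.23 without Bap1LysM OC 1, and the S phase median 0.30 without Bap1LysM BMM 3. Without both number 1 cultures 5 genes were called (22.3% of all genes called higher), with medians of 0.36 and 0.02, but that fit holds 1 Bap1LysM OC, which is assumed to vary like the other groups, as do the fits without Bap1LysM OC 1 or OC 2. With the replicate number as a block the S phase median was 0.32, and 4 mitosis genes were called in place of 2. In that fit 4712 of 13637 genes were called in either direction.

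In 3 S phase genes that rose in Bap1flox, Pcna, Gins2 and E2f1, the estimate in Bap1LysM was below 0, and none of them passed. Gins2, a GINS subunit, measured 18.6, 23.9 and 15.4 CPM in Bap1LysM BMMs and 18.6 and 17.1 CPM in OCs 1 and 2, a log2 difference of -0.20 ± 0.22. Pcna had 223, 209 and 139 CPM in these BMMs and 185 and 125 CPM in the OCs, a log2 difference of -0.39 ± 0.26. The groups overlapped in both genes. Whether the response to RANKL itself differs between the genotypes was tested as an interaction in the same 11 libraries.

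In that test the Bap1LysM response was smaller than the Bap1flox response for all 51 genes, with a median of -1.17 for the S phase list and -0.95 for the mitosis list, against 0.04 over all genes. No cell cycle gene passed, as edgeR called 0.0% of 13637 genes, and the smallest adjusted p of the list was 0.33. At an unadjusted p under 0.05 there were 44 of the 51 genes, 21 S phase and 23 mitosis genes, all with a smaller response in Bap1LysM, and 1718 of all genes. That count was 22 without Bap1LysM OC 1, 25 without Bap1flox OC 1 and 28 by voomWithQualityWeights, and 29 and 30 without Bap1LysM BMM 2 and Bap1flox BMM 1. DESeq2 called 6 genes, all of the S phase list (0.367% of all genes), and voomWithQualityWeights called 0. In a single fit of all 17 libraries, with a term for the library set, edgeR called 40 of the 51 genes (21 S phase and 19 mitosis) in this direction, where 5.32% of 13810 genes were called. That fit adds the OC libraries 4 to 6, for which no BMM was measured.

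The differences of response with the smallest p were those of Gins2 at -1.27 ± 0.30, Mcm10 at -1.44 ± 0.36 and Cdt1 at -1.09 ± 0.27 in the S phase list, and of Kif11 at -1.15 ± 0.33, Aurkb at -1.16 ± 0.35 and Melk at -1.09 ± 0.34 in the mitosis list. The largest was that of Mcm5 at -1.55 ± 0.39, with a normal confidence interval of -2.31 to -0.78. The smallest was that of Cenpa at -0.36 ± 0.33. The mitosis median was -0.59 without Bap1LysM BMM 2. Without both number 1 cultures the medians were -1.30 and -0.98 and 0 genes were called, with 1 Bap1LysM OC left in the fit.

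The genotypes were first compared in BMMs, before RANKL. Here the S phase genes were higher in Bap1LysM, though none passed the adjusted threshold. All 51 genes had a log2 difference of 0 or above, with a median of 0.92 for the S phase list, a fold of 1.89, and of 0.43 for the mitosis list, against -0.01 over all genes. The 3 Bap1LysM BMMs stood above the 3 Bap1flox BMMs in 17 of 21 S phase genes and in 1 of 30 mitosis genes, Kif11, where 13.6% of all genes did. edgeR called 0 of the 51 genes, against 1.31% of 13028 genes called higher, and the smallest adjusted p was 0.0544 for Pcna. At an unadjusted p under 0.05 there were 23, all 21 S phase genes with Kif11 and Ccna2, where 3416 of 13028 genes were. The 2 of 30 mitosis genes were a smaller share than that of all genes. The count of 23 was 12 without Bap1LysM BMM 2 and 14 without Bap1flox BMM 1. It was 47 without Bap1LysM BMM 1, where 3135 of 12974 genes were under 0.05. It was 36 with the replicate number as a block, where 4658 of 13028 genes were. With the replicate number as a block 25 genes were called higher (19 S phase and 6 mitosis), where 5.47% of all genes were, DESeq2 called 18 (6.75% of all genes), and voomWithQualityWeights 7 (5.53%).

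Mcm5 and Mcm2, 2 subunits of the helicase, had the largest differences. Mcm5 measured 31.4, 58.8 and 44.8 CPM in Bap1flox BMMs and 95.9, 149 and 73.7 CPM in Bap1LysM BMMs, a log2 difference of 1.25 ± 0.30 (SE, adjusted p = 0.0617). Mcm6 measured 144, 199 and 109 CPM in Bap1LysM BMMs, all above the Bap1flox values, with 1.01 ± 0.25 (SE, adjusted p = 0.0681). Mcm4 had 30.2, 43.9 and 40.2 CPM in Bap1flox and 64.5, 94.05 and 55.02 CPM in Bap1LysM BMMs, or 0.91 ± 0.21 (SE, adjusted p = 0.0588). In each of these genes Bap1LysM BMM 2 was highest and Bap1flox BMM 1 lowest, and the lowest Bap1LysM culture was nearer to the highest Bap1flox culture than to Bap1LysM BMM 2.

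Pcna measured 86.1, 119.8 and 98.8 CPM in Bap1flox and 223, 209 and 139 CPM in Bap1LysM BMMs, a log2 difference of 0.93 ± 0.21 (SE, adjusted p = 0.0544), and was the only S phase gene highest in Bap1LysM BMM 1. Cdt1 had 62.2, 78.2 and 46.4 CPM in Bap1LysM BMMs, or 0.92 ± 0.21 (SE, adjusted p = 0.0572). Mcm10 had 10.2, 16.9 and 12.4 CPM and 25.3, 40.3 and 20 CPM, or 1.13 ± 0.28 (SE, adjusted p = 0.0686). E2f1, the activating E2F, differed least of the S phase list, with 68.8, 77.8 and 60.6 CPM in Bap1LysM BMMs and a log2 difference of 0.39 ± 0.11 (SE, adjusted p = 0.0848). Ccne1 at 11.5, 22.8 and 10.8 CPM in Bap1LysM had a difference of 1.04 ± 0.38 (SE, adjusted p = 0.142), with a wide spread between cultures.

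Among the mitosis genes, Kif11, the motor that pushes the spindle poles apart, measured 33.5, 40.2 and 32.7 CPM in Bap1flox and 40.4, 84.2 and 48.6 CPM in Bap1LysM BMMs, a log2 difference of 0.71 ± 0.25 (SE, adjusted p = 0.132). Ccna2, the cyclin of S phase and G2, had 46.4, 62.5 and 48.3 CPM and 54.9, 126 and 73.2 CPM, or 0.70 ± 0.28 (SE, adjusted p = 0.172). Top2a, the topoisomerase that untangles chromosomes, had 111, 162 and 130.0 CPM and 144, 295 and 171 CPM, or 0.60 ± 0.26 (SE, adjusted p = 0.194). In all 30 mitosis genes Bap1LysM BMM 2 was the highest of the 6 BMMs, and in 17 of them Bap1LysM BMM 1 was the lowest. Mki67 measured 146, 401 and 217 CPM in Bap1LysM BMMs and Cdc20 28.96, 69.9 and 45.4 CPM, and both overlapped Bap1flox. The mitosis median was 0.11 without Bap1LysM BMM 2 and 0.65 without Bap1LysM BMM 1. Without Bap1LysM BMM 3, 5 S phase genes were called, Cdt1, Mcm4, Mcm6, Pcna and E2f1, and 0 mitosis genes, where 756 of 12959 genes were called in either direction. Without the number 1 culture of Bap1LysM the S phase median was 0.96 and 0 genes were called (0.478% of all genes called higher).

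In OCs the genotypes differed the other way. After 24 h of RANKL all 51 genes were lower on average in Bap1LysM, and 27 passed the edgeR test as lower, 8 of 21 S phase genes and 19 of 30 mitosis genes, where 8.68% of 12929 genes were called lower. None was called higher, as 7.12% of all genes were. The median log2 difference was -0.44 for the S phase list and -0.45 for the mitosis list, against -0.01 over all genes, so expression was about 0.738 and 0.733 of the Bap1flox level. Every Bap1LysM OC lay below every Bap1flox OC in 19 genes, 6 of the S phase and 13 of the mitosis list, as for 7.67% of all genes. With the replicate number as a block 45 genes were called, 21 of 21 S phase and 24 of 30 mitosis genes (16.7% of all genes called lower), and by voomWithQualityWeights 45, 20 S phase and 25 mitosis genes (28.1%), with an S phase median of -0.67. Of the 27 genes, 17 (5 S phase and 12 mitosis) stayed called in each of 11 fits that left out 1 library. Without Bap1LysM OC 4 the count was 17, where 1074 of 12869 genes were called in either direction. Without both number 1 cultures the count was 37, with medians of -0.57 and -0.39 (13.3% of all genes called lower).

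**Figure D3:**
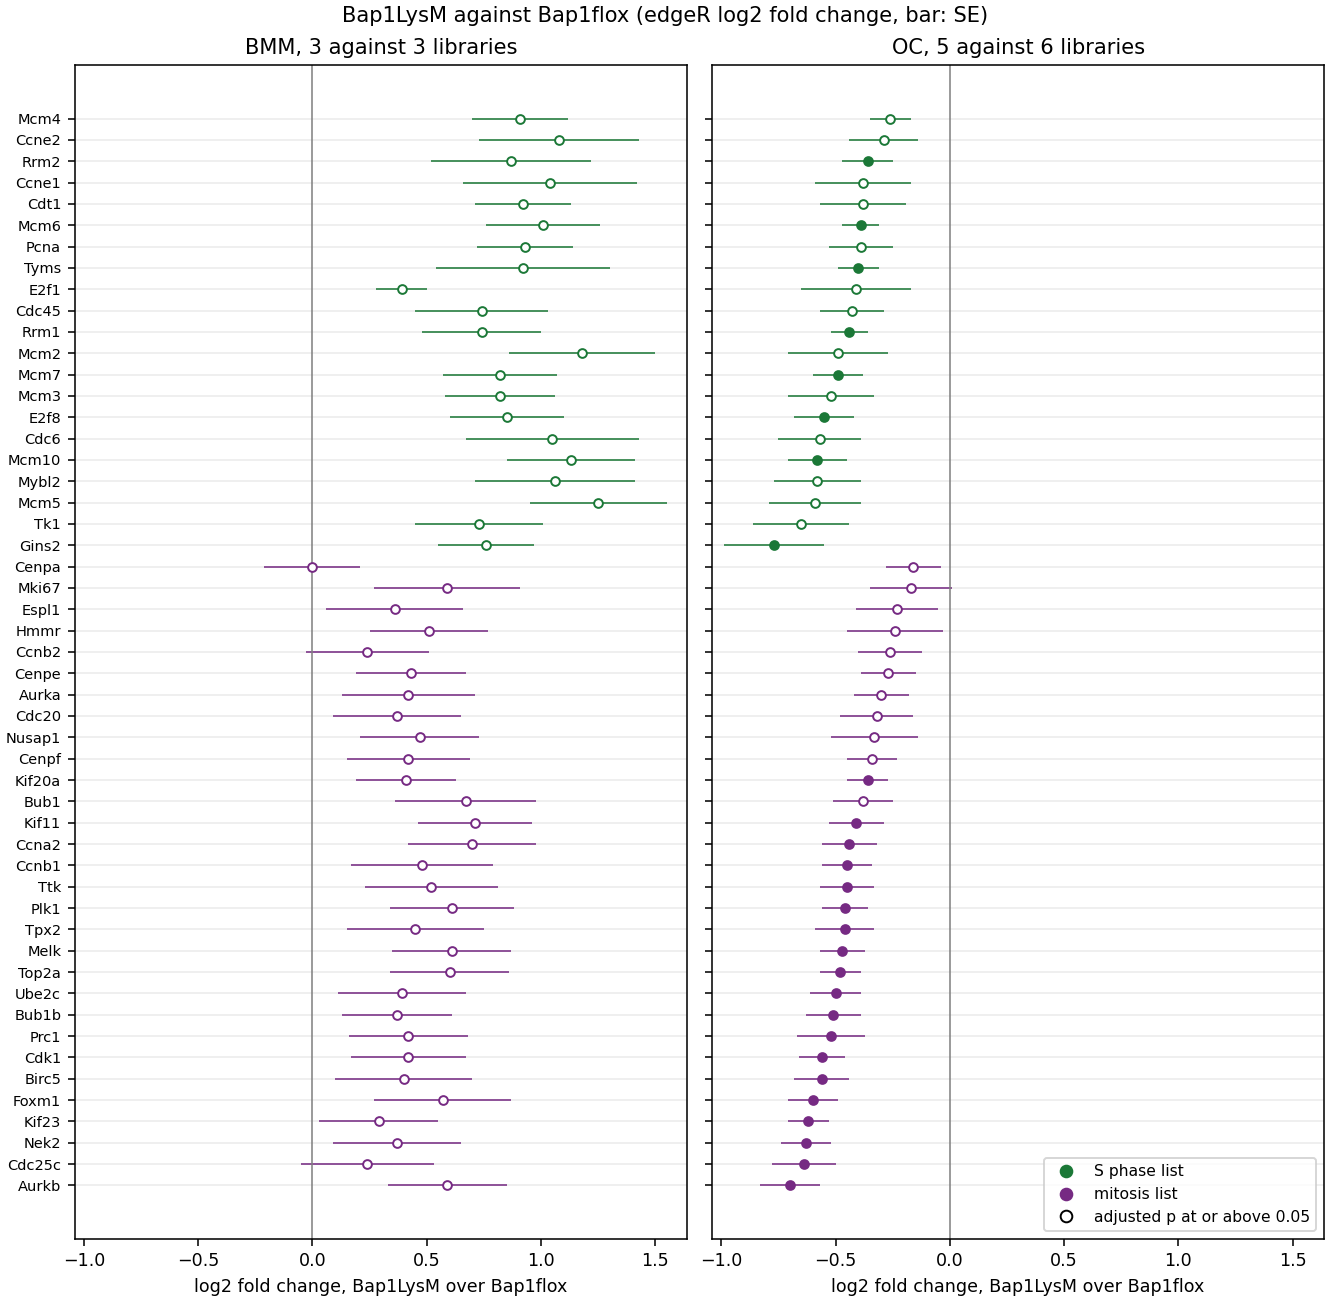
The log2 difference of Bap1LysM over Bap1flox (edgeR, bars show 1 SE) for each cell cycle gene in BMMs (left) and OCs (right), with filled points for adjusted p under 0.05. In BMMs no point is filled and the S phase median lies right of 0 at 0.92, and in OCs all 51 points lie left of 0 with 27 filled.

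Among the mitotic kinases and motors, Kif23, a motor of the central spindle needed for cytokinesis, had the smallest p. It measured 75.99 to 91.3 with a median of 79.9 CPM in Bap1flox OCs and 42.8, 53.4, 45.95, 50.98 and 58.2 CPM in Bap1LysM OCs, a log2 difference of -0.62 ± 0.09 (SE, adjusted p = 0.00134), or 1.54-fold lower. The groups did not overlap. Nek2, a kinase that splits the centrosomes, measured 43.9 to 55.8 with a median of 50.3 CPM in Bap1flox and 23.6, 38.4, 28.3, 29.01 and 34.4 CPM in Bap1LysM OCs, a log2 difference of -0.63 ± 0.11 (SE, adjusted p = 0.0031). Cdk1, the kinase that drives mitosis, measured 78.2 to 113 with a median of 90.00 CPM and 57.00, 75.2, 52.3, 51.7 and 59.7 CPM, a log2 difference of -0.56 ± 0.10 (SE, adjusted p = 0.00404). For both genes, too, every Bap1LysM OC was below every Bap1flox OC, while in BMMs their values overlapped, with Cdk1 at 35.2, 50.7 and 38.4 CPM in Bap1flox and 36.7, 77.1 and 51.6 CPM in Bap1LysM.

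Aurkb, the kinase of the chromosomal passenger complex, had the largest difference of the mitosis list, with 48.9 to 81.8 with a median of 61.3 CPM in Bap1flox and 40.1, 48.1, 32.4, 31.7 and 29.9 CPM in Bap1LysM OCs, or -0.70 ± 0.13 (SE, adjusted p = 0.00552). Birc5, its partner in that complex, fell by 0.56 on the log2 scale (adjusted p = 0.0104). Foxm1, the factor that raises mitosis genes, differed by -0.60 ± 0.11 (SE, adjusted p = 0.00437) and Plk1 by -0.46 ± 0.10 (SE, adjusted p = 0.00831). Cdc25c, the phosphatase that switches Cdk1 on, differed by -0.64 ± 0.14 (SE, adjusted p = 0.0101). Top2a measured 348 to 409.6 with a median of 362 CPM in Bap1flox and 231, 299, 219, 223 and 282 CPM in Bap1LysM OCs, a log2 difference of -0.48 ± 0.09 (SE, adjusted p = 0.00487), again with no overlap. Melk, a kinase most abundant in dividing cells, differed by -0.47 ± 0.10 (SE, adjusted p = 0.0081). Kif11 measured 75.7 to 96.2 with a median of 92.8 CPM and 49.7, 65.7, 61.2, 61.6 and 78.3 CPM, or -0.41 ± 0.12 (SE, adjusted p = 0.0349), with the last Bap1LysM culture inside the Bap1flox range.

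Of the cyclins, Ccnb1 measured 68.7 to 84.5 with a median of 75.9 CPM in Bap1flox and 39.4, 57.6, 52.6, 56.3 and 59.6 CPM in Bap1LysM OCs, a log2 difference of -0.45 ± 0.11 (SE, adjusted p = 0.0184). Ccna2 measured 128 to 165 with a median of 149.8 CPM and 81.3, 111, 97.3, 99.8 and 127 CPM, or -0.44 ± 0.12 (SE, adjusted p = 0.0278). Neither gene overlapped between the genotypes. Ccnb2, close in function to Ccnb1, had -0.26 ± 0.14 (SE, adjusted p = 0.243), which did not pass, and whether it differs from Ccnb1 was not tested. The call of Ccna2 held in 6 of the 11 fits without 1 library and that of Ccnb1 in 9.

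In the spindle checkpoint, Bub1b passed at -0.51 ± 0.12 (SE, adjusted p = 0.0154) and Ttk at -0.45 ± 0.12 (SE, adjusted p = 0.0247). Bub1 measured 54.6 to 79.3 with a median of 70.3 CPM in Bap1flox and 38.4, 53.6, 47.1, 49.01 and 56.6 CPM in Bap1LysM OCs, and its difference of -0.38 ± 0.13 (SE, adjusted p = 0.073) did not pass, but passed with the replicate block (adjusted p = 0.0224). Of the genes that end mitosis, Ube2c, a ubiquitin-conjugating enzyme of the anaphase-promoting complex, fell by 0.50 on the log2 scale (adjusted p = 0.0106). Cdc20 measured 66.8 to 104 with a median of 91.7 CPM in Bap1flox and 44.9, 100.0, 69.3, 67.2 and 59.8 CPM in Bap1LysM OCs, a log2 difference of -0.32 ± 0.16 (SE, adjusted p = 0.196), with 3 Bap1LysM cultures inside the Bap1flox range and the first culture furthest below it. Espl1 measured 64.1 to 117 with a median of 94.4 CPM and 63.9, 118, 72.5, 68.3 and 60.3 CPM, and its difference of -0.23 ± 0.18 (SE, adjusted p = 0.405) had an interval of -0.57 to 0.11.

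With the block the mitosis genes that did not pass were Aurka, Cdc20, Cenpa, Mki67, Ccnb2 and Espl1. Without it the 11 that did not pass were Cenpf, Bub1, Aurka, Cenpe, Cdc20, Ccnb2, Nusap1, Cenpa, Espl1, Hmmr and Mki67. Mki67 measured 299.7 to 411 with a median of 342 CPM in Bap1flox and 180.0, 306, 295, 289 and 409 CPM in Bap1LysM OCs, so 2 of the 5 Bap1LysM values lay within the Bap1flox range and 3 under it. Its log2 difference of -0.17 ± 0.18 (SE, adjusted p = 0.565) had an interval of -0.53 to 0.19, which holds both 0 and the median of the list. Aurka, the kinase of the spindle poles, measured 59.05 to 85.3 with a median of 71.2 CPM in Bap1flox and 41.4, 74.5, 52.4, 51.98 and 55.98 CPM in Bap1LysM OCs, or -0.30 ± 0.12 (SE, adjusted p = 0.108). Cenpa, which differed least with RANKL in Bap1flox and was at -0.35 ± 0.25 (SE, adjusted p = 0.296) with RANKL in Bap1LysM, had the smallest difference here, -0.16 ± 0.12 (SE, adjusted p = 0.402).

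Of the S phase genes, Rrm1, the large subunit of ribonucleotide reductase, measured 216 to 251 with a median of 235 CPM in Bap1flox and 150.0, 187, 152, 155 and 175 CPM in Bap1LysM OCs, a log2 difference of -0.44 ± 0.08 (SE, adjusted p = 0.00462). Mcm6 measured 265 to 331 with a median of 300.1 CPM and 221, 253, 203, 189 and 216 CPM, or -0.39 ± 0.08 (SE, adjusted p = 0.00685). In both genes the genotypes did not overlap. Mcm7 measured 129.5 to 166 with a median of 153 CPM and 108, 136, 86.1, 87.01 and 91.6 CPM, or -0.49 ± 0.11 (SE, adjusted p = 0.00963), with Bap1LysM OC 2 inside the Bap1flox range. Its gene overlaps Ap4m1, Cops6 and the microRNA genes Mir25, Mir93 and Mir106b, and whether counting used strand is not stated. Mcm10, Tyms, E2f8, Gins2 and Rrm2 also passed, at -0.58, -0.40, -0.55, -0.77 and -0.36. Without 1 library Mcm10 and Tyms stayed called in all 11 fits and E2f8 in 10, but Gins2 in 4 and Rrm2 in 3.

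The other 13 S phase genes did not pass with genotype alone in the model. All 21 passed with the replicate number as a block, but 20 also passed with only a term for the library set (4349 of 12929 genes called in either direction), and 18 without Bap1LysM OC 1 (3085 of 12881). Mcm4 had the smallest difference, with 111 to 131 with a median of 117 CPM in Bap1flox and 97.2, 105, 78.2, 82.00 and 104 CPM in Bap1LysM OCs, or -0.26 ± 0.09 (SE, adjusted p = 0.0647), although the groups did not overlap. Mcm5 measured 129 to 229.6 with a median of 174 CPM in Bap1flox and 153, 152, 78.3, 80.6 and 84.6 CPM in Bap1LysM OCs, and its difference of -0.59 ± 0.20 (SE, adjusted p = 0.0696) had an adjusted p of 0.00649 with the block. Pcna measured 167 to 222 with a median of 178 CPM and 185, 125, 109, 118 and 127 CPM, or -0.39 ± 0.14 (SE, adjusted p = 0.0869). Cdt1 measured 83.95 to 157 with a median of 129 CPM and 110.0, 139, 74.1, 71.1 and 68.7 CPM, or -0.38 ± 0.19 (SE, adjusted p = 0.205). In Mcm5 and Cdt1 the Bap1LysM values of replicates 1 and 2 were higher than those of replicates 4 to 6, and in Pcna that of replicate 1 stood above the other 4. Ccne1 had 21.9 to 39.9 with a median of 28.00 CPM in Bap1flox and 30.01, 27.2, 14.1, 15.2 and 17.9 CPM in Bap1LysM OCs, or -0.38 ± 0.21 (SE, adjusted p = 0.241). E2f1 had 54.8 to 104 with a median of 70.00 CPM and 82.3, 62.6, 38.9, 38.6 and 36.4 CPM, or -0.41 ± 0.24 (SE, adjusted p = 0.264), and Mybl2 44.5 to 79.3 with a median of 68.2 CPM and 42.99, 68.3, 33.4, 31.4 and 33.3 CPM, or -0.58 ± 0.19 (SE, adjusted p = 0.0565).

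**Figure D4:**
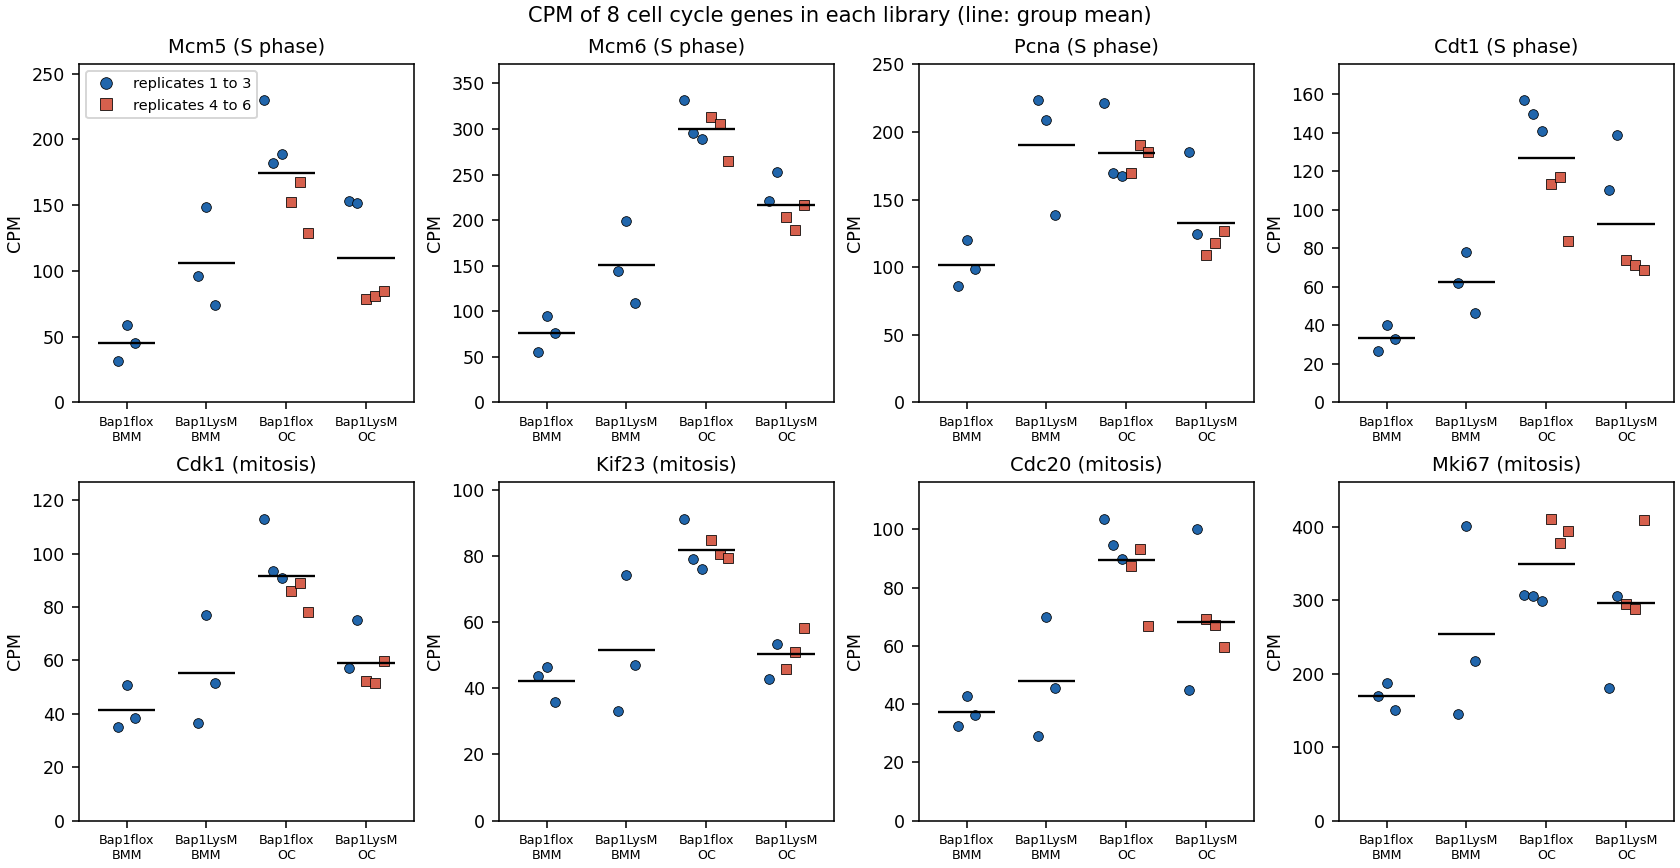
CPM of 8 cell cycle genes in each library by group, on axes that start at 0, with colour and shape for the library set and a line at the group mean. Mcm5 and Cdt1 differ between the OC library sets, Kif23, Cdk1 and Mcm6 separate the OC genotypes in both sets, and Mki67 overlaps between genotypes.

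Between the 2 library sets of OCs, with genotype in the model, 11 of the 51 genes were higher and 15 lower in replicates 4 to 6 than in 1 to 3, close to the 25.5% of all genes called higher and 28.1% called lower. By list, 13 of 21 S phase genes were lower and 1, Ccne2, higher, and 10 of 30 mitosis genes were higher, a share near that of all genes, and 2, Aurkb and Espl1, lower. The median was -0.31 for the S phase list and 0.16 for the mitosis list, against -0.02 over all genes. Markers of other cells differed between the sets as well, with 6 of 7 tested stromal markers lower and 1 higher (median -1.65) and 5 of 6 tested progenitor markers higher (median 1.07), and their part was not tested. E2f1 at -0.71 ± 0.11 (SE, adjusted p = 0.000357) and Cdt1 at -0.57 ± 0.09 (SE, adjusted p = 0.000454) had the smallest p of the S phase list, and Nusap1 and Hmmr, which bind spindle microtubules, at 0.59 ± 0.08 (SE, adjusted p = 0.00017) and 0.66 ± 0.10 (SE, adjusted p = 0.000301) those of the mitosis list. The mitosis mean minus the S phase mean, in log2 CPM, was -0.115, -0.020 and -0.042 in Bap1flox OCs 1 to 3 and 0.239, 0.151 and 0.242 in Bap1flox OCs 4 to 6, with no overlap.

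Within replicates 1 to 3, with 2 Bap1LysM and 3 Bap1flox OCs, edgeR called 0 of the 51 genes and 0.0% of 13129 genes. At an unadjusted p under 0.05 there were 26 of the 51 and 2336 of all genes, and the medians were -0.30 for S phase and -0.47 for mitosis genes. Within replicates 4 to 6, with 3 of each, 43 genes were called lower, 21 of 21 S phase and 22 of 30 mitosis genes, where 18.0% of 12728 genes were, and the medians were -0.57 and -0.46. The mitosis medians of the sets thus lay close together, and those of the S phase list further apart. The library labelled Bap1LysM OC 1 is 1 of the 2 Bap1LysM OCs in replicates 1 to 3. Both Bap1LysM OCs lay below all 3 Bap1flox OCs of their set in 18 S phase and 25 mitosis genes in replicates 1 to 3 (25.5% of all genes), and all 3 did in 21 and 23 genes in replicates 4 to 6 (28.8%). A test of the difference between the sets, added after these values were seen, called 0 of the 51 genes and 0.0% of 12929 genes. At an unadjusted p under 0.05 it had 6 of the 51 genes and 1185 of all genes, and the 6 were S phase genes, Mcm2 at -0.64 ± 0.17, Mcm10 at -0.45 ± 0.14, Mcm5 at -0.52 ± 0.17, Mcm7, Cdc6 and Mcm3. In the same test neutrophil markers had a median of 1.43 with 5 of 8 tested at an unadjusted p under 0.05, progenitor markers a median of 0.61 with 6 of 6 above 0, and stromal markers a median of 1.28 with 6 of 7 above 0, and their part was not tested.

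**Figure D5:**
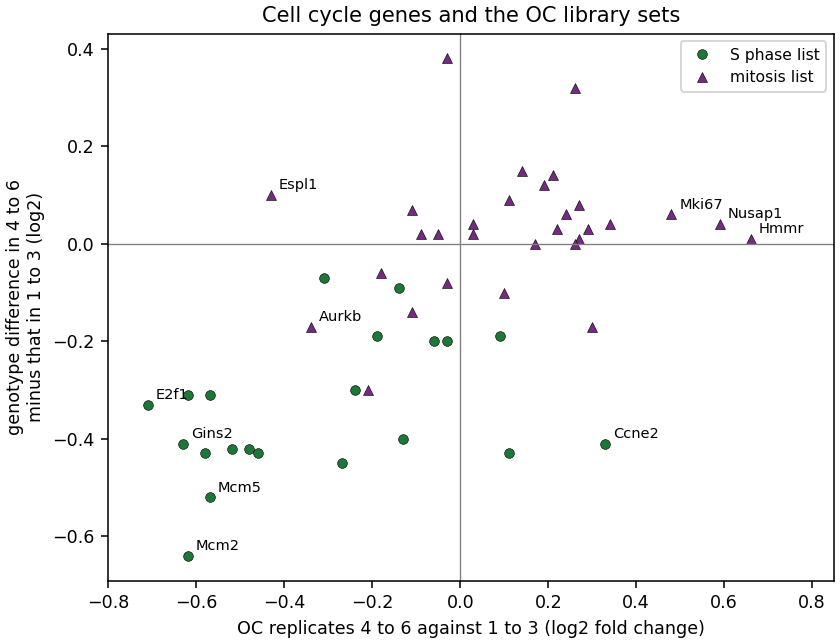
For each cell cycle gene, the log2 difference of OC replicates 4 to 6 over 1 to 3 with genotype in the model (horizontal axis) and the genotype difference in replicates 4 to 6 minus that in 1 to 3 (vertical axis), which are estimated from the same 11 OC libraries. All 21 S phase genes lie below 0 on the vertical axis, with a median of -0.40, and the mitosis genes lie around 0 with a median of 0.03.

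Within the sets single cultures also stood apart. The library labelled Bap1LysM OC 1 had the lowest value of all 11 OCs for 25 of 30 mitosis genes but for 1 of 21 S phase genes, and the library labelled Bap1LysM BMM 1 the lowest of the 6 BMMs for 17 of 30 mitosis genes and for 0 S phase genes. Their mitosis minus S phase values of -0.503 and -0.365 were the lowest of the 17 libraries, whose other values ran from -0.115 to 0.849. Lyz2 stood at 75.1% of the Bap1flox mean in Bap1LysM OC 1 and at 42.8% in Bap1LysM BMM 1, and the part of that in the result was not tested. Bap1flox OC 1 was the highest OC for 19 S phase and 17 mitosis genes, and Bap1flox BMM 1 the lowest BMM for all 21 S phase genes.

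Further genes of the same processes, in lists written for this description, were read against the shares of all genes, 29.4% called higher with RANKL in Bap1flox, 21.2% in Bap1LysM and 8.68% lower in Bap1LysM OCs. Of 40 other replication genes, such as DNA polymerase, GINS and origin genes, 40 were called higher with RANKL in Bap1flox and 8 in Bap1LysM, the latter no larger a share than among all genes, and 20 were called lower in Bap1LysM OCs. In BMMs 0 of the 40 were called and 30 had an unadjusted p under 0.05, as did 3416 of 13028 genes. The medians of the 40 were 1.46, 0.37, -0.49 and 0.72. Of 50 other mitosis genes, 42 were called higher and 1 lower with RANKL in Bap1flox, 0 higher and 1 lower in Bap1LysM, 28 lower in Bap1LysM OCs and 0 in BMMs, with medians of 0.94, 0.03, -0.45 and 0.46. The gene lower with RANKL in both genotypes was Ncapg2, a condensin subunit. Of 15 genes of the anaphase-promoting complex and its regulators 2 were lower in Bap1LysM OCs, with a median of -0.06, and no difference between lists was tested.

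Of 21 genes of G1 cyclins, kinases, pocket proteins and their partners, 4 were called lower in Bap1LysM OCs, and 10 were called higher and 4 lower with RANKL in Bap1flox, against 8.68% of all genes in the first case and 29.4% and 28.7% in the others. Tfdp2, a binding partner of E2F factors, was the furthest lower in Bap1LysM OCs, at -1.09 ± 0.11 (SE, adjusted p = 0.000375). Of 7 CDK inhibitors 1 was lower in Bap1LysM OCs, too few to set against the 8.68% of all genes, Cdkn2c at -0.49 ± 0.12 (SE, adjusted p = 0.0199), itself a gene that many dividing cells express. Cdkn1a, which encodes the inhibitor p21, had 0.50 ± 0.17 (SE, adjusted p = 0.0664) there. With RANKL 1 of the 7 was higher and 2 lower in Bap1flox, and 0 higher and 3 lower in Bap1LysM, where 17.7% of all genes were called lower. In Bap1flox Cdkn2b was higher by 1.47 on the log2 scale (adjusted p = 0.0379), Cdkn1b was at -1.16 (adjusted p = 0.000198) and Cdkn1a at -0.74 (adjusted p = 0.000361). In Bap1LysM Cdkn2d was at -0.73, Cdkn1b at -0.68 and Cdkn1a at -0.56 (adjusted p = 0.0453, 0.0129 and 0.0062).

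Markers of other cells moved with genotype too. In the 11 OCs 4 of 6 tested progenitor markers and 6 of 8 tested neutrophil markers were called higher in Bap1LysM, against 7.12% of all genes. The 8 progenitor markers summed to 12.4 to 41.8 CPM in Bap1flox and 34.5 to 99.6 CPM in Bap1LysM OCs, the 9 neutrophil markers to 92.6 to 220.0 and 165.2 to 558.3 CPM, and no marker of either list was at 0 in all libraries of a group. In BMMs the progenitor sum was 12.5 to 38.7 CPM in Bap1flox and 49.96 to 53.7 CPM in Bap1LysM, without overlap, with 1 of 6 tested markers called higher. The 8 stromal markers, led by collagens, summed to 605.0 to 3202 CPM in Bap1flox and 428.4 to 1471 CPM in Bap1LysM BMMs, and to 237.1 to 2511 and 122.8 to 1550 CPM in OCs, with 0 called and Lum at 0 in all BMMs. Of 8 macrophage markers 2 were higher in Bap1LysM OCs, Mertk by 1.26 and Csf1r by 0.41 on the log2 scale (adjusted p = 0.0157 and 0.022), and of 10 osteoclast markers 1 was lower, Dcstamp at -0.69 (adjusted p = 0.0211). In BMMs 4.01% of all genes were called lower in Bap1LysM, among them 1 of 8 macrophage markers, Mrc1 at -0.56 (adjusted p = 0.0451), 1 of 2 tested B cell markers, Cd79b at -1.05 (adjusted p = 0.0363), and the 1 tested erythroid marker, Epor at -2.36 (adjusted p = 0.0405). The part of these cells in the cell cycle differences was not tested.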

How the data were processed

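Poly(A) RNA was sequenced from 17 cultures. The authors aligned reads with STAR 2.5.1a to GRCm38 and counted them per gene with featureCounts 1.4.6-p5, and whether counting used strand is not given in the sources used here. They deposited counts, CPM (count over the library's total) and RPKM (CPM per kilobase of gene length). The depth per sample was 37967542 to 61369441 counts. Tests used the deposited counts as they stand, without 355 ribosomal RNA genes, which held at most 0.359% of a library.

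edgeR 4.0.16 in R 4.3.3 (quasi-likelihood test, TMM factors, two-sided, Benjamini-Hochberg over all genes tested, adjusted p under 0.05) was fitted to the 11 OC libraries (genes above 1 CPM in at least 4), the 6 BMM libraries (at least 2), and the 11 libraries of replicates 1 to 3 in a joint fit (at least 2) for the RANKL responses. Intervals of log2 differences are normal ones from the SE, which is the log2 difference over the square root of F. Mean log2 CPM used a prior count of 2. It did not include TMM factors, and neither did the CPM from which overlap of groups was read. Scripts were tested on simulated data. Groups come from the labels. The 51 genes, the further lists, the marker lists (macrophage, osteoclast, neutrophil, progenitor, B cell, erythroid and stromal) and the comparisons were chosen with earlier results of these data known. Values per library are given for 7 genes set by name and for the 3 smallest p of each list in each of 5 comparisons, with others by role. B cell and erythroid markers summed to at most 18.0 and 4.37 CPM in any library. Alternatives were voomWithQualityWeights (limma 3.58.1), which the study names, DESeq2 1.42.0, other scalings and filters, leaving out libraries, library set terms, and the replicate number as a block. Log2 CPM centred on its group was correlated between libraries with the same number. The values were 0.39 to 0.73 between genotypes in OCs, 0.36 to 0.54 in BMMs and 0.23 to 0.50 between BMM and OC. Libraries with different numbers were not compared in this way. The main fits of the 5 comparisons held group alone, and the number served as a block only among the alternatives. Centred within each library set as well, the OC values for numbers 1, 2, 4, 5 and 6 were 0.45, 0.38, 0.01, -0.15 and 0.06. Promoters come from the RefSeq table for GRCm38.p6.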

Additional observations from a re-analysis of the deposited data

Results flagged for a closer look

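Of 60 groups of values tested for a single culture far from the rest, 3 met the Dixon criterion, and chance flags about 1 in 20 groups. Espl1 stood at 118.3 CPM in Bap1LysM OC 2, while the other Bap1LysM OCs ran from 60.26 to 72.51 CPM. Pcna stood at 184.9 CPM in Bap1LysM OC 1, with the others at 109.1 to 126.7 CPM. Mcm4 stood at 131.3 CPM in Bap1flox OC 1, with the others at 111.0 to 117.9 CPM.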

How the results depend on the processing

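Of the values that answer a comparison, 371 were counted as kept under the alternatives and 25 as moved. A median was counted as kept if it shifted by less than the pooled SD of the library means, 0.31 for S phase and 0.28 for mitosis. A kept median can thus have changed sign. A count was counted as kept if it changed by no more than a fixed ratio. For the genes with values per library, 2420 fits kept direction and side of the threshold, 182 came to pass it, 51 no longer did, and 20 changed sign, none of them in a gene that passed in the comparison as reported. The sign changes came from leaving out Bap1LysM cultures. In BMM genotype the differences without 1 library ran from -0.03 to 0.59 for Espl1 and from -0.02 to 0.51 for Kif23. For RANKL in Bap1LysM they ran from -0.13 to 0.42 for Ccna2, -0.03 to 0.42 for Cdk1, -0.31 to 0.22 for E2f1, -0.07 to 0.41 for Melk, -0.14 to 0.48 for Nek2, -0.32 to 0.17 for Aurkb, -0.27 to 0.21 for Kif11, -0.40 to 0.11 for Kif23, -0.51 to 0.25 for Mki67 and -0.11 to 0.91 for Cdc20. Without both number 1 cultures Melk had -0.05. The sign of the mitosis median in that comparison changed too.

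For OC genotype, 27 genes were called lower, 8 S phase and 19 mitosis genes, against 45 by voomWithQualityWeights (20 and 25), 45 with the replicate block (21 and 24), 44 with a term for the library set (20 and 24), 0 in replicates 1 to 3 alone, 43 in replicates 4 to 6 alone, and 17 to 37 without 1 library. Over all genes 2043 were called in either direction, against 7099 by voomWithQualityWeights, 4236 with the block and 4349 with the set term. These numbers were 0 and 4304 within the sets, and 1071 to 3085 without 1 library. For BMM genotype, 0 were called higher, against 7 by voomWithQualityWeights, 18 by DESeq2, 7 with no filter, 25 with the replicate block, 26 with all 17 libraries in 1 fit, and 0 to 5 without 1 library, where the mitosis median ran from 0.11 to 0.65. Over all genes 693 were called in either direction, against 1772, 2065, 775, 2107 and 1991 in these fits and 4 to 756 without 1 library. For RANKL in Bap1LysM, 4 were called higher, against 2 by voomWithQualityWeights, 2 from that genotype's libraries alone and 9 (with 1 lower) from all 17 libraries in 1 fit. Over all genes 5308 were called in either direction, against 2937, 2503 and 6813 in these fits. Without 1 library, but with both Bap1LysM OCs kept, 2 to 16 of the 51 and 4293 to 5427 of all genes were called. The mitosis median ran from -0.16 to 0.36 without 1 library. For the difference of the responses, 0 were called lower, against 6 by DESeq2 and 40 from all 17 libraries in 1 fit, and the mitosis median ran from -1.15 to -0.59 without 1 library. Over all genes 0 were called in either direction, against 113 by DESeq2 and 1440 from all 17 libraries in 1 fit. The cause of these moves was not tested. With the replicate block, genes of the 51 at an unadjusted p under 0.05 in BMMs went from 23 to 36, and all genes from 3416 to 4658. Mitosis genes called for RANKL in Bap1LysM went from 2 to 4, and all genes called in either direction from 5308 to 4712. Each of the 51 genes had a count of at least 181 in every library, and replicates 1 to 3 hold 2 Bap1LysM OCs.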
